A study of Mus musculus with 9 samples.

Results

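The 8 genes described here, Cyp4a12a, Cyp4a14, Cyp4b1, Cyp4f13, Cyp4f14, Cyp4f15, Cyp4f16 and Cyp4v3, belong to cytochrome P450 family 4. They were chosen by name and not by their values, and each has at least 1 probe set annotated to that gene alone. They are not the whole measured family: 4 other Cyp4 genes have such a probe set and are described further below. The 8 members are among 18193 genes with such a probe set, and all 8 passed the filter on dim signals, as did 12466 genes in all. A probe set is the group of short probes on the array that reads 1 transcript. Cyp4f16 and Cyp4v3 had 2 probe sets of their own, and the one with the highest mean signal over the 9 arrays was used; the other 6 genes had 1 each.

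Enzymes of this family sit in the endoplasmic reticulum and add a hydroxyl group to the far (omega) end of a fatty acid chain. Alcohol and aldehyde dehydrogenases turn the product into a dicarboxylic acid, which is shortened by beta-oxidation in peroxisomes. The Cyp4a genes of rodent liver are textbook targets of PPAR alpha, a nuclear receptor for fatty acids and fibrates, while Cyp4f enzymes are known for inactivating leukotrienes and other eicosanoids and for hydroxylating vitamin E and vitamin K side chains.

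The data are 9 liver RNA samples of female Crlj:CD1(ICR) mice, an outbred stock, each on its own Affymetrix array. Animals were bought at an age of 9 weeks and quarantined for 1 week. For 2 weeks they ate powdered food with no test compound (control, 0 ppm), with 5000 ppm permethrin or with 5000 ppm clofibrate, and each diet has 3 samples that the labels call biological replicates. The labels do not say whether a sample is 1 animal, so the p-values measure the spread between these samples. Permethrin is a pyrethroid insecticide, and clofibrate is a fibrate, a lipid-lowering drug and PPAR alpha activator. Values are signals in intensity units as deposited. Differences are on the scale of log2(signal + 3.35), and a gene was called when its limma p-value, adjusted over 24546 probe sets, was under 0.05. Intervals are 95% intervals from the same limma fit, and folds are on that scale. Signals of different probe sets cannot be set against each other, so levels are compared between diets and not between genes.

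The arrays read liver. The 5 hepatocyte markers measured had a summed signal of 56112 to 59111 on control arrays. The sum was 48877 to 53732 on permethrin arrays and 37241 to 47919 on clofibrate arrays. The highest signal on an array was 14387 to 14899, 12792 to 13409 and 10714 to 12058 in that order. Of the 5 hepatocyte markers, 0 were called with permethrin and 4 were called lower with clofibrate. Their median log2 differences were -0.16 and -0.42, and 2.80% of all probe sets were called lower with clofibrate. Of the 4 lung epithelium markers and the 3 adipocyte markers with a probe set, 0 passed the filter. Markers of some other tissues did pass it: 4 of 5 for kidney, 4 of 5 for neutrophils and 2 of 4 for skeletal muscle. Their sums were at most 105, 239 and 53.9 on any array. Stellate cell markers had a sum of 875 to 982 in the control group. Under permethrin it was 563 to 771 and under clofibrate 554 to 871, below the controls, and Reln gave most of it. The median log2 difference of the 4 stellate markers was 0.10 under permethrin and 0.25 under clofibrate, and 0 were called. Endothelial markers summed to 1554.0 to 1768 on control arrays and lay below that under clofibrate, at 1212 to 1292, while the permethrin sums of 1419 to 1642 overlapped the controls. Of these 5 endothelial genes 0 were called, and 3 had an unadjusted limma p under 0.05 with clofibrate, as had 4661 of the 24546 probe sets tested. The pancreas markers, of which Cela1 gave most of the signal, summed to 1165 to 1468 in controls and to at most 322 on treated arrays. Cela1 alone of them was called, lower with both diets, by log2 differences of -2.66 with permethrin and -2.67 with clofibrate. Cpa1 and Ctrb1 did not pass the filter, so this sum reads mainly Cela1. The part of these shifts in the results below was not tested.

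Cyp4f13, Cyp4f14, Cyp4f15 and Cyp4f16 lie on chromosome 17, and their start regions are shown because these genes of related sequence are set side by side below. RefSeq windows of 300 bases (build GRCm38.p6, from 250 bases before the gene's start to 50 after it) were found for 6 of the 8 genes, all but Cyp4a12a and Cyp4a14. In capitals is CCAAT, a promoter element bound by the factor NF-Y, on either strand (ATTGG on the strand shown). For Cyp4f14, which has 4 listed windows, the one that begins farthest upstream is given.
Cyp4f14 (chr17:32917307-32917606, minus strand): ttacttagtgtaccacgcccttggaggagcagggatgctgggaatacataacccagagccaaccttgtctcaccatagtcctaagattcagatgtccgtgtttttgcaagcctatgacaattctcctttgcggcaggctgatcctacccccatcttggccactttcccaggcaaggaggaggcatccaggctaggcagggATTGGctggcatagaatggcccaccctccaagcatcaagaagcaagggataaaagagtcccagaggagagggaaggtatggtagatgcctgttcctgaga
Cyp4f15 (chr17:32685409-32685708, plus strand): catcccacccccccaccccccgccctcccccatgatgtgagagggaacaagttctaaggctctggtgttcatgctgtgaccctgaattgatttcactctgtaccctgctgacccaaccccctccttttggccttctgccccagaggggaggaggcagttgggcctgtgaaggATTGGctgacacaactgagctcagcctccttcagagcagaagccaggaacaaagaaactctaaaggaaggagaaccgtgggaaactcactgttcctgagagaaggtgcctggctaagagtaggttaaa
Cyp4f13 (chr17:32947312-32947611, minus strand): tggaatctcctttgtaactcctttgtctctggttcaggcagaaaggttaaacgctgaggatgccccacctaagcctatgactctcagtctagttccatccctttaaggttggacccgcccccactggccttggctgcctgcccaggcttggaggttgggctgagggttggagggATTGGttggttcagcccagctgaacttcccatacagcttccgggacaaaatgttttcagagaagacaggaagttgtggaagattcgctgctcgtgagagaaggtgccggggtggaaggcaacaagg
Cyp4f16 (chr17:32536307-32536606, plus strand): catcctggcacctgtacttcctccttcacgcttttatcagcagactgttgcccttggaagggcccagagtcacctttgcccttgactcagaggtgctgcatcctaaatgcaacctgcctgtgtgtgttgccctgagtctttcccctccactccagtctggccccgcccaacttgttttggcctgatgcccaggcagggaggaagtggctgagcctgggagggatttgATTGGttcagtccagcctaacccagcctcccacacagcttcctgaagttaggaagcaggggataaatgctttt
Each of these windows held CCAAT on the strand opposite to the gene, beginning 50 bases before the start in Cyp4f14, 78 in Cyp4f15, 76 in Cyp4f13 and 23 in Cyp4f16. The windows of Cyp4b1 (chromosome 4) and Cyp4v3 (chromosome 8) held none. Over the whole table, 37.4% of 32851 windows had CCAAT on either strand. The half-site AGGTCA, the core of elements read by PPAR and related receptors, was in none of the members' windows on either strand and in 16.3% of all windows. Its direct repeat with 1 base between the copies, which contains the half-site, was in 0.0396% of all windows and in none of the members'. TATAAA was in 13.6% of all windows and also in none of theirs. A match describes the letters only, and no match says only that these letters are not in the window.

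Both Cyp4a members, Cyp4a12a and Cyp4a14, had higher signals on all 6 treated arrays than on any control array. Another Cyp4a gene, Cyp4a31, overlapped the controls with both diets and is described further below. Cyp4a12a, which hydroxylates arachidonic acid and is known for much higher expression in males than in females, had signals of 325, 201 and 62.2 in control replicates 1 to 3. With permethrin they were 2148, 2424 and 1731, and with clofibrate 3536, 1529.8 and 4325. Every treated sample lay above every control, and the clofibrate values spread on both sides of the permethrin values. The control mean was 196 ± 132, the permethrin mean 2101 ± 349 and the clofibrate mean 3130 ± 1441 (SD, n = 3). Cyp4a12a rose by a log2 difference of 3.67 ± 0.51 with permethrin (SE; limma adjusted p = 0.00447), or 12.7-fold with an interval of 5.86 to 27.6. It rose by 4.13 ± 0.51 with clofibrate (SE; limma adjusted p = 0.000817), or 17.5-fold with an interval of 8.05 to 37.9. By log2 difference it ranked 1 of 12466 genes with permethrin and 5 with clofibrate. Without control replicate 3, the lowest control, the differences were 3.01 and 3.47, both still past the threshold. In bulk liver, more RNA per cell and more cells that express the gene cannot be told apart.

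Cyp4a14, an omega-hydroxylase of medium- and long-chain fatty acids that is widely used as a marker of PPAR alpha activity, had control signals of 4234, 489.8 and 2602. The permethrin signals were 7999, 8714 and 8077, and the clofibrate signals 7298, 8419.96 and 7898. All treated samples were above all controls, and the 6 treated values lay close together while the controls were far apart. Treated signals were 62.2% to 69.8% of the highest signal on their arrays, and control signals 3.37% to 28.4%. Whether the upper limit of array signals narrowed the treated spread or the differences was not tested. The means were 2442 ± 1877, 8263 ± 392 and 7872 ± 561 (SD, n = 3). Cyp4a14 rose with clofibrate by 2.16 ± 0.57 (SE; limma adjusted p = 0.0497). With permethrin its log2 difference was 2.23 ± 0.57 and missed the threshold (SE; limma adjusted p = 0.0863). Without control replicate 2, the lowest control, the clofibrate difference was 1.24, and without control replicate 1 it was 2.79, both past the threshold. The clofibrate call was ended by leaving out control replicate 3 or any 1 of the clofibrate arrays (adjusted p = 0.0711 to 0.135), and by the replicate block (adjusted p = 0.0525). The permethrin difference was past the threshold without control replicate 1 (2.87) and without control replicate 2 (1.31), and under scaling to the hybridization controls (2.38), which are spiked transcripts.

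In Cyp4a14, permethrin and clofibrate differed by a log2 value of 0.07, with an interval of -1.17 to 1.32 (limma adjusted p = 0.975). For Cyp4a12a the difference was -0.46, with an interval of -1.58 to 0.66 (limma adjusted p = 0.776). Neither interval is narrow enough to show that the diets gave the same level.

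**Figure D1:**
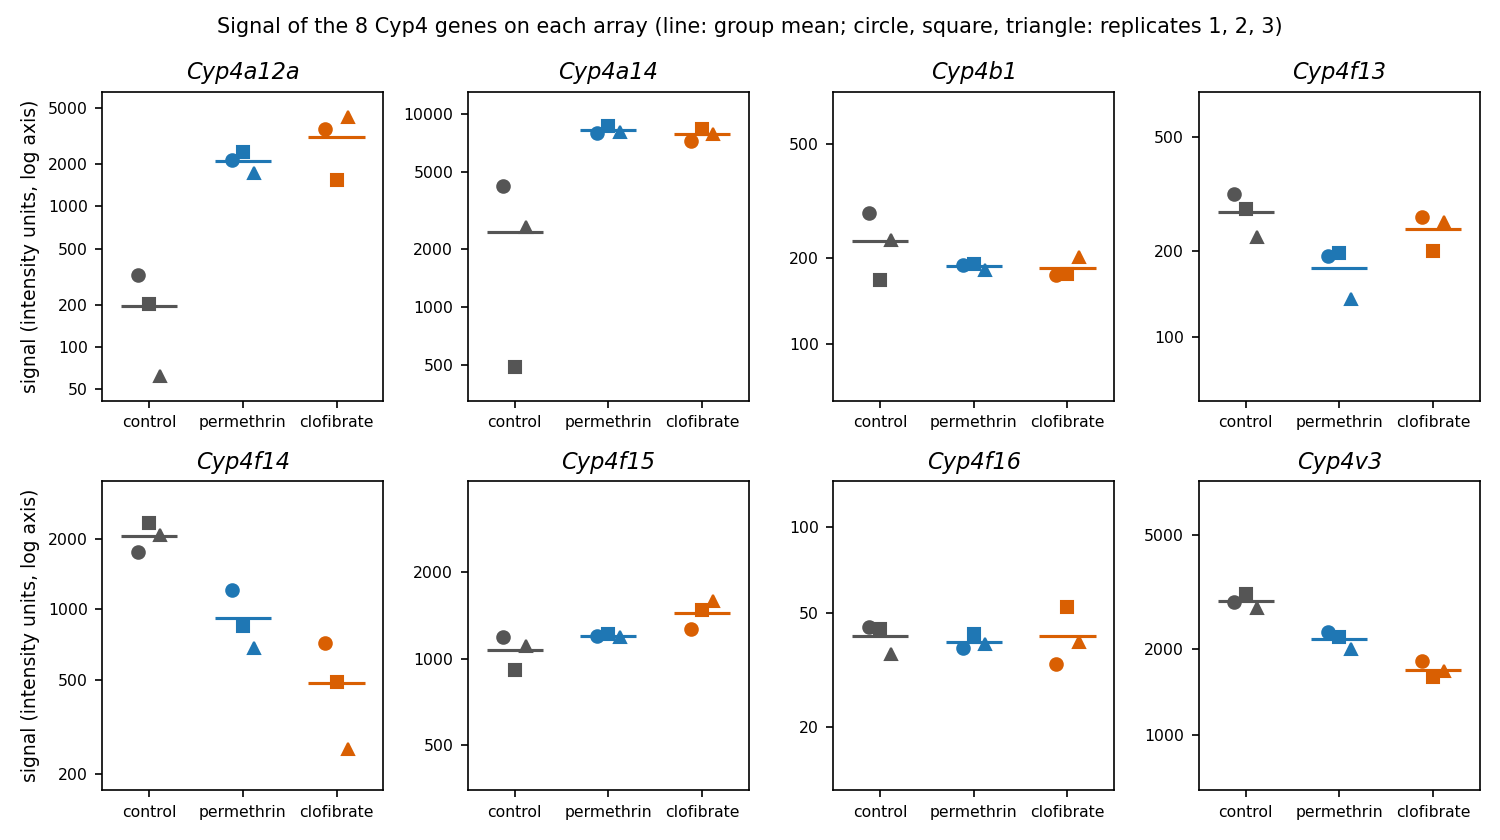
Signal of each of the 8 genes on each array (vertical log axis in intensity units, with its own range in each panel) by diet; circles, squares and triangles are replicates 1, 2 and 3, and horizontal lines are group means. Cyp4a12a and Cyp4a14 lie higher on all 6 treated arrays with widely scattered controls, while Cyp4f14 and Cyp4v3 lie lower on all 6.

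The controls of these Cyp4a genes were among the most scattered on the array. Over the 3 control arrays, the SD of log2(signal + 3.35) was 1.63 for Cyp4a14 and 1.20 for Cyp4a12a, against a median of 0.19 over 12466 genes. Only 16 genes had a larger control SD than Cyp4a14, and 124 a larger one than Cyp4a12a. As a coefficient of variation, the control spread was 76.9% for Cyp4a14 and 67.1% for Cyp4a12a. The lowest control differed: replicate 2 for Cyp4a14 and replicate 3 for Cyp4a12a, with replicate 1 highest for both. With treatment the SD of Cyp4a14 was 0.07 (permethrin) and 0.10 (clofibrate), while that of Cyp4a12a was 0.25 and 0.79.

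The other 6 members had control SDs from 0.08 (Cyp4v3) to 0.39 (Cyp4b1). Cyp4v3 was steadier among controls than most genes, as 16.1% of genes had a smaller SD. The peroxisomal genes described below had a median control SD of 0.15 and a highest of 0.77 (Abcd2), and the partners of omega oxidation a highest of 0.35 (Adh4). Hsd3b5, a male-biased steroid dehydrogenase, reached 1.41, and its highest control was replicate 2 (signals of 206, 1196 and 229.6).

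**Figure D2:**
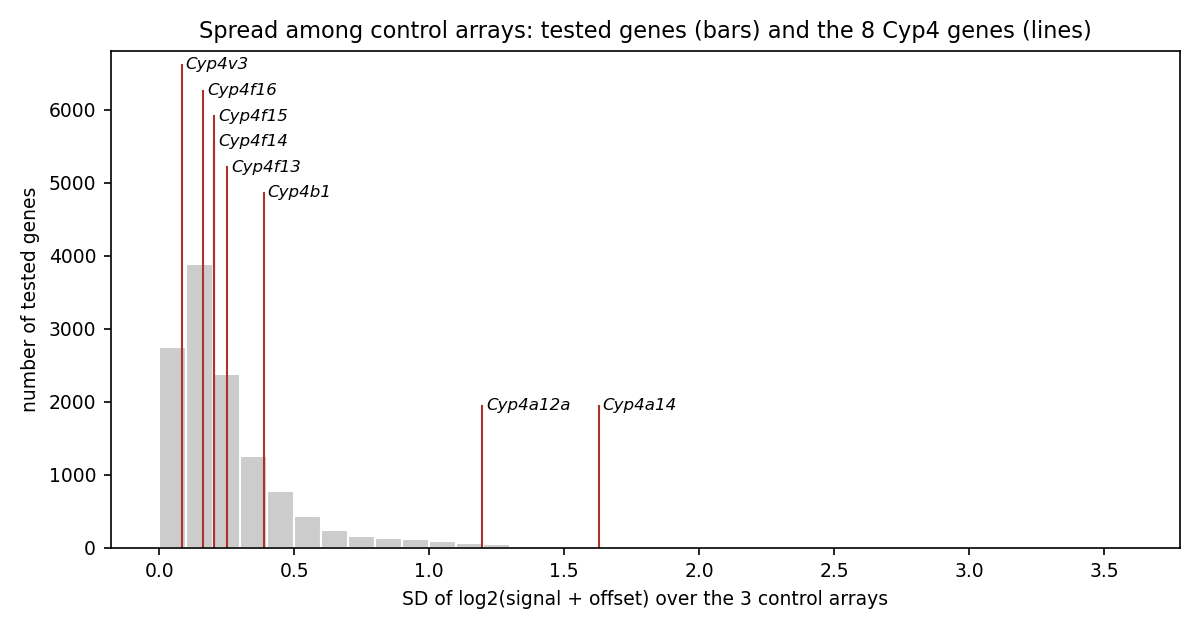
Histogram of the SD of log2(signal + 3.35) over the 3 control arrays (horizontal axis) for 12466 tested genes (vertical axis, number of genes), with red lines at the 8 Cyp4 genes; line heights carry no value. Cyp4a12a (1.20) and Cyp4a14 (1.63) lie in the far tail, and the other 6 between 0.08 and 0.39.

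Of the 4 Cyp4f genes, Cyp4f14 alone was called, and only against control with clofibrate, where 5.64% of all probe sets were called. Cyp4f14, which hydroxylates leukotriene B4 and vitamin E, had control signals of 1764, 2339 and 2082. Permethrin signals were 1213, 849 and 686, and clofibrate signals 718, 491 and 256. All treated samples lay below all controls, and the treated groups overlapped only between the lowest permethrin and the highest clofibrate value. Cyp4f14 fell 4.54-fold with clofibrate, from 2062 ± 288 to 488 ± 231 (SD, n = 3), a log2 difference of -2.18 ± 0.31 (SE; limma adjusted p = 0.00215). It was the 10th lowest of 12466 genes by log2 difference. With permethrin the mean was 916 ± 269.95 (SD, n = 3) and the log2 difference -1.20 ± 0.31, not past the threshold (SE; limma adjusted p = 0.0960). It passed when control and permethrin arrays alone were fitted (limma adjusted p = 0.0199). The difference between permethrin and clofibrate was 0.98 ± 0.31, with an interval of 0.29 to 1.68 (SE; limma adjusted p = 0.234).

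Cyp4f15 had control signals of 1194, 908 and 1109. The permethrin signals of 1196, 1213 and 1188 were nearly identical to each other. The clofibrate signals were 1268, 1483 and 1589. The clofibrate samples were all above the controls, while the permethrin samples overlapped them. The means were 1070.3 ± 147, 1199 ± 12.98 and 1447 ± 164 (SD, n = 3). Neither the clofibrate difference of 0.44 ± 0.12 (SE; limma adjusted p = 0.0678) nor the permethrin difference of 0.17 ± 0.12 (SE; limma adjusted p = 0.593) passed the threshold. The clofibrate difference passed it in 5 of 20 alternatives. It was 0.77 under scaling to the hybridization controls, 0.49 with cyclic loess, 0.52 with array weights, 0.44 with a filter at a signal of 50 and 0.53 without clofibrate replicate 1.

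Cyp4f13 had control signals of 315, 281 and 223, permethrin signals of 192, 196 and 136, and clofibrate signals of 261, 199 and 251. The permethrin samples lay below every control and every clofibrate sample. Their log2 difference from control, -0.64 ± 0.18, did not pass (SE; limma adjusted p = 0.130). The clofibrate difference was -0.19 ± 0.18 (SE; limma adjusted p = 0.643), and permethrin against clofibrate was -0.45 ± 0.18 (SE; limma adjusted p = 0.363). Cyp4f16 was dim, with control signals of 44.7, 44.1 and 35.9. Its permethrin signals were 37.8, 42.1 and 39.0 and its clofibrate signals 33.1, 52.5 and 39.6. The 3 groups overlapped, and the intervals of its log2 differences from control were -0.49 to 0.38 for permethrin and -0.44 to 0.42 for clofibrate. The second Cyp4f16 probe set had signals of 0.692 to 10.7 and was below the filter.

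Cyp4v3, the mouse counterpart of the human fatty acid hydroxylase CYP4V2 that is mutated in Bietti crystalline dystrophy, was lower with both diets. Control signals were 2929.96, 3114 and 2777. Permethrin signals were 2302, 2201 and 2010.5, and clofibrate signals 1815, 1598 and 1673. The 3 groups did not overlap, with permethrin between control and clofibrate. Cyp4v3 fell with clofibrate by a log2 difference of -0.79 ± 0.10, or 1.73-fold (SE; limma adjusted p = 0.000738), and with permethrin by -0.44 ± 0.10, or 1.35-fold (SE; limma adjusted p = 0.0493). The permethrin call was ended by leaving out any 1 of the 6 arrays compared (log2 difference -0.48 to -0.38), by quantile, median or cyclic loess normalization and by the replicate block (adjusted p = 0.0825). Scaling to the spiked hybridization controls ended both calls (log2 difference -0.46 with clofibrate and -0.29 with permethrin).

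A second Cyp4v3 probe set had control signals of 1831, 1897 and 1751, permethrin signals of 1259, 1324 and 1357, and clofibrate signals of 1474, 1183 and 1438. It too was lower on all treated arrays. Its log2 difference passed with clofibrate (-0.42 ± 0.11; SE; limma adjusted p = 0.0397) and not with permethrin (-0.47 ± 0.11; SE; limma adjusted p = 0.0520). The probe sets disagreed on the order of the diets: permethrin minus clofibrate was 0.36 ± 0.10 on the first (SE; limma adjusted p = 0.149) and -0.05 ± 0.11 on the second (SE; limma adjusted p = 0.899).

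Cyp4b1, an enzyme best known in lung for activating foreign compounds such as ipomeanol, had control signals of 287, 167 and 231. The permethrin signals were 189, 189.7 and 181, and the clofibrate signals 174, 175 and 201. All treated values lay inside the range of the controls. Its log2 difference was -0.25 ± 0.18 with permethrin (SE; limma adjusted p = 0.585) and -0.28 ± 0.18 with clofibrate (SE; limma adjusted p = 0.443). The summed lung markers were 17.1 to 53.4 in controls and 16.4 to 60.6 on treated arrays.

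**Figure D3:**
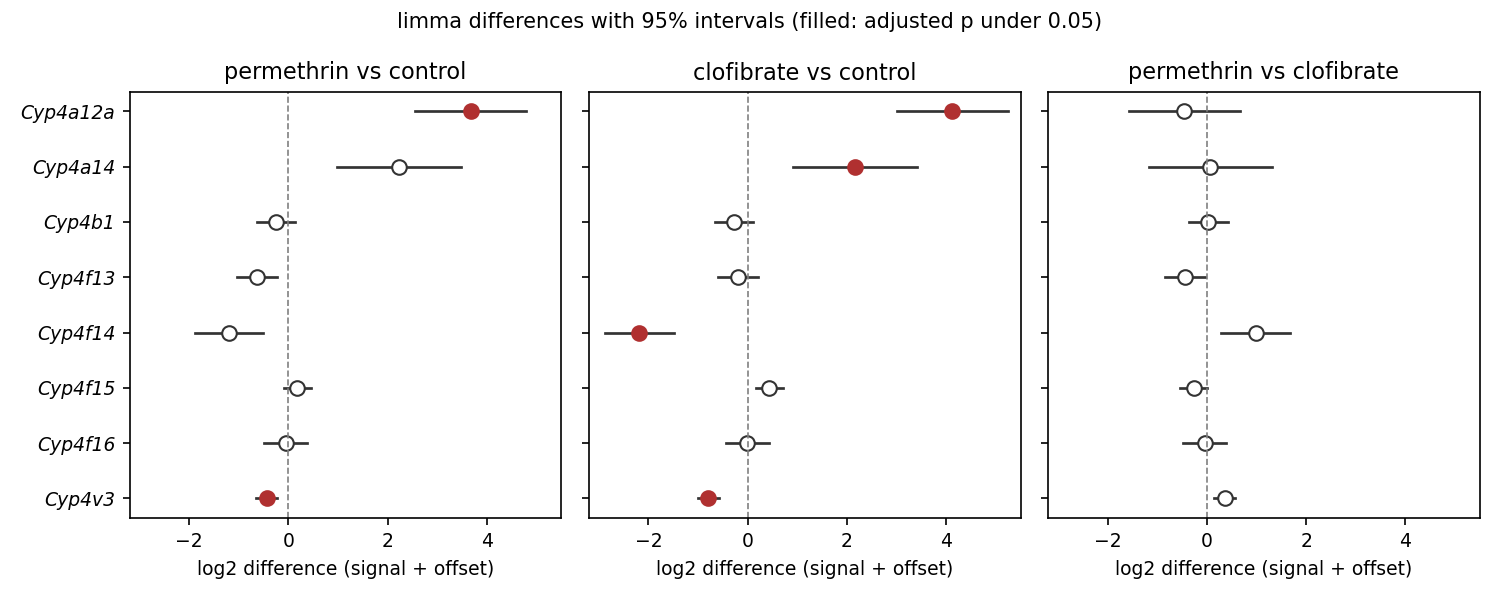
Differences in log2(signal + 3.35) between diets for the 8 genes (horizontal axis), with 95% intervals from limma; filled points have an adjusted p under 0.05. Against control, Cyp4a12a and Cyp4a14 lie to the right of 0 and Cyp4f14 and Cyp4v3 to the left. No point is filled for permethrin against clofibrate.

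Counted together, 1 of the 8 members rose and 1 fell with permethrin, where 1.61% of all probe sets were called (1.01% higher and 0.599% lower). With clofibrate 2 rose and 2 fell, where 5.64% were called (2.84% higher and 2.80% lower). Counted by gene, as the members are, 160 of 12466 genes were called higher and 106 lower with permethrin. The clofibrate counts were 402 and 474. With permethrin the groups did not overlap for 5 of 8 members, 2 higher and 3 lower, against 20.0% of all probe sets (8.23% higher and 11.7% lower). With clofibrate they did not for 5 of 8, 3 higher and 2 lower, against 24.9% (11.2% higher and 13.7% lower). The median log2 difference of the 8 was -0.15 with permethrin and -0.10 with clofibrate, against -0.05 and -0.04 over all probe sets. These comparisons share the control samples. Between permethrin and clofibrate, limma called 0 of 8 members, and 0.554% of all probe sets were called (0.330% higher and 0.224% lower with permethrin). An unadjusted limma p under 0.05 was found for 3 members (Cyp4f13, Cyp4f14 and Cyp4v3) and for 2967 of the 24546 probe sets tested. Groups did not overlap there for Cyp4v3, higher with permethrin, and for Cyp4f13 and Cyp4f15, lower with it, against 16.8% of all probe sets (7.81% higher and 9.03% lower).

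Of 12 other Cyp4 genes listed, 4 had a probe set of their own, and Cyp4f18 and Cyp4x1 were below the filter. Cyp4a31, another Cyp4a gene, had control signals of 171, 74.3 and 176, permethrin signals of 490.1, 641 and 94.8, and clofibrate signals of 329, 138 and 2224. Each group overlapped the others, and the log2 differences of 1.23 ± 0.90 with permethrin (SE; limma adjusted p = 0.603) and 1.81 ± 0.90 with clofibrate (SE; limma adjusted p = 0.310) did not pass. Cyp4f39 stayed near the filter value of 15.6, with signals of 9.00 to 22.2. limma called 0 of these 2 tested genes in any comparison, and 0 had an unadjusted p under 0.05. Family members share sequence, so a probe set annotated to 1 of them may also read a relative.

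The genes that act beside or after omega hydroxylation were read as lists. Over all probe sets, 1.01% were called higher and 0.599% lower with permethrin, and 2.84% and 2.80% with clofibrate. The list of partners of omega oxidation (electron donors, alcohol and aldehyde dehydrogenases) held 11 genes. Of these, the electron donor Por had no probe set of its own, and Aldh3a1 did not pass the filter. Among the 9 tested genes, 1 rose with permethrin and 0 fell, and 1 rose and 2 fell with clofibrate. The median log2 difference was -0.11 and -0.34. The gene that rose was Aldh3a2, the fatty aldehyde dehydrogenase, which had signals of 772, 1046 and 997 in controls. Permethrin arrays gave 2827, 2665 and 2705, and clofibrate arrays 3631, 4899.6 and 4161. These 3 groups did not overlap, and both calls held in 20 of 20 alternatives. The falls with clofibrate were Cyb5a, cytochrome b5, and Adh5, an alcohol dehydrogenase, by log2 differences of -0.34 and -0.37. Both lost the call under 4 of 4 other scalings, quantile, median, cyclic loess and hybridization controls. Cyb5a was called in 8 of 20 alternatives and Adh5 in 9 of 20.

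Peroxisomal genes that handle dicarboxylic acids were called in the upward direction alone against control. With permethrin 5 of 13 rose and 0 fell, with a median log2 difference of 0.59. With clofibrate 9 of 13 rose and 0 fell, with a median of 0.84. Over all probe sets, 1.01% were called higher with permethrin and 2.84% with clofibrate. Crat, carnitine acetyltransferase, rose by log2 differences of 1.69 and 2.67, and Ehhadh, the bifunctional enzyme of peroxisomal beta-oxidation, by 1.52 and 1.72. Acot3, a peroxisomal acyl-CoA thioesterase, rose by 1.72 and 2.23. The peroxisomal transporter Abcd3 rose by 0.77 and 0.83. The permethrin calls of Acot3 and Abcd3 held in 19 of 20 alternatives each, all but the fit with no intensity trend. Hsd17b4, also called with permethrin (0.55), held in 11 of 20. Its call was lost without any 1 of the control or permethrin arrays, with median centring, with no filter and with no intensity trend. Acot4, which releases succinate and other dicarboxylic acids from CoA, rose with clofibrate by 2.13, and its permethrin difference of 1.04 did not pass (limma adjusted p = 0.0599). Crat and Acot8 were lower with permethrin than with clofibrate, by log2 differences of -0.98 (limma adjusted p = 0.0110) and -0.90 (limma adjusted p = 0.0145). Neither passed without clofibrate replicate 3, after median centring of the arrays or with no intensity trend. Acot8 also failed without clofibrate replicate 2 and without permethrin replicate 2 or 3. Over the alternatives, 2 to 7 genes of the list rose with permethrin and 7 to 11 with clofibrate.

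**Figure D4:**
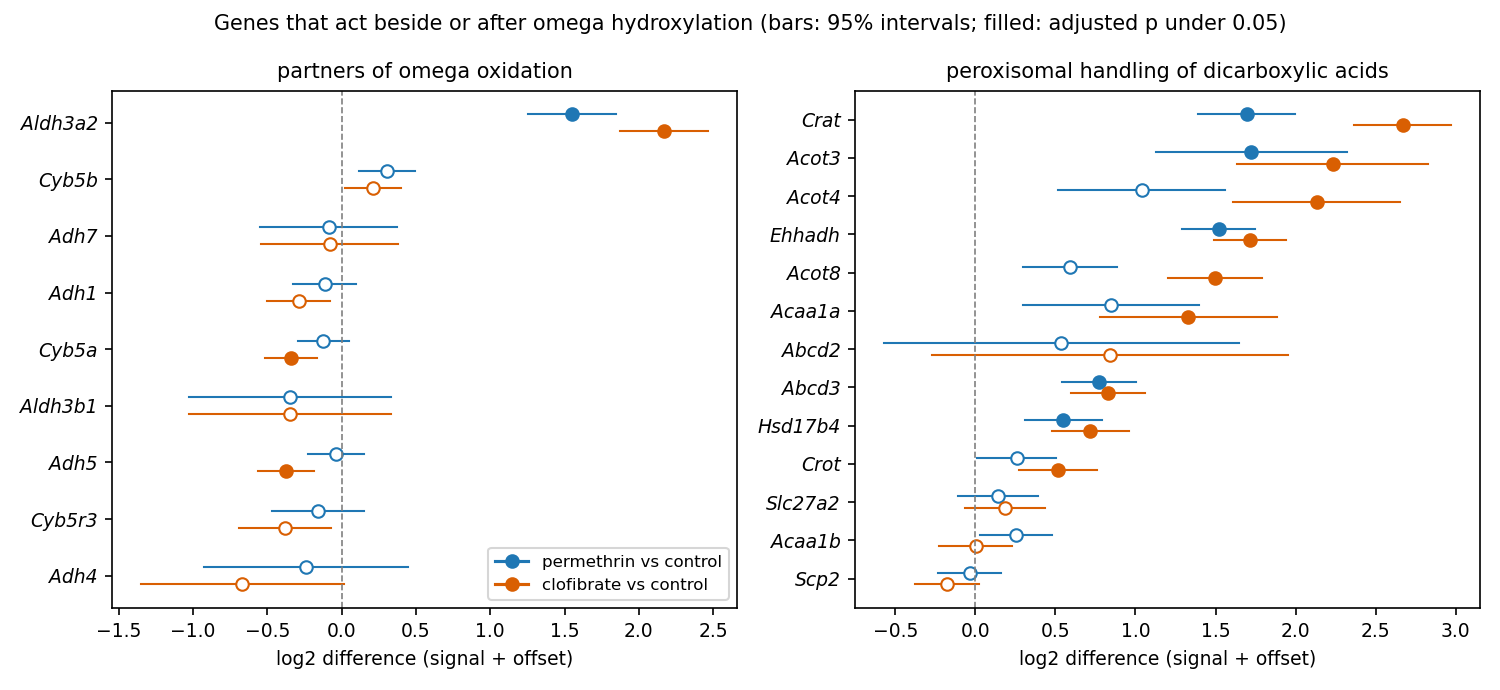
Differences from control in log2(signal + 3.35) with 95% limma intervals for tested genes of the lists of omega oxidation partners (left) and peroxisomal handling of dicarboxylic acids (right); blue is permethrin, orange is clofibrate, and filled points have an adjusted p under 0.05. Aldh3a2 stands apart on the left, and on the right 5 points are filled for permethrin and 9 for clofibrate.

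Since Cyp4a12a is male-biased, sex-biased genes were looked at in these female livers. Of 11 male-biased genes tested, 1 rose with permethrin and 0 fell, and 1 rose and 2 fell with clofibrate. Their median log2 differences were -0.15 and -0.59. Over all probe sets, 1.01% were called higher and 0.599% lower with permethrin, and 2.84% and 2.80% with clofibrate. Elovl3, a fatty acid elongase, was the gene that rose, from a control mean of 103 ± 30.6 to 465 ± 246 under permethrin and 325 ± 113 under clofibrate (SD, n = 3). Its calls held in 10 of 20 alternatives for permethrin and 5 of 20 for clofibrate, and each was lost without any 1 of the control arrays, among other settings. Hsd3b5 and Egfr, the epidermal growth factor receptor, fell with clofibrate, by log2 differences of -4.20 and -1.17. The Hsd3b5 difference ran from -5.35 to -2.56 over the alternatives, and its size is uncertain because clofibrate replicate 3 had a signal of 1.41, under the offset. Hsd3b5 was not called without control replicate 2 or 3 or clofibrate replicate 3, with no intensity trend or with robust moderation. Egfr was not called without any 1 of the controls, without clofibrate replicate 2 or 3, or under scaling to the hybridization controls. Nor was it called with no intensity trend or with robust moderation. Cyp7b1, an oxysterol hydroxylase, was higher with permethrin than with clofibrate by 1.06 (limma adjusted p = 0.0319). That call was lost without permethrin replicate 1 or 2 or any 1 of the clofibrate arrays. It was also lost under scaling to the hybridization controls, with no intensity trend and with the arrays compared alone. Of 10 female-biased genes, Acot3 rose with both diets and 0 fell.

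Among 13 regulators tested, 0 rose with either diet, and 1 fell with permethrin and 2 with clofibrate. Over all probe sets, 1.01% were called higher and 0.599% lower with permethrin, and 2.84% and 2.80% with clofibrate. The clofibrate counts depended on the scaling. Under scaling to the hybridization controls 3 regulators rose and 0 fell, and with each array centred on its median 0 rose and 0 fell. Stat5b, which carries the growth hormone signal in hepatocytes, fell from 319 ± 36.2 to 164 ± 25.1 with permethrin and 203 ± 21.5 with clofibrate (SD, n = 3), by log2 differences of -0.95 and -0.64. The permethrin call was lost without control replicate 1 and with each array centred on its median. The clofibrate call was lost with each array centred on its median, under scaling to the hybridization controls, with no intensity trend and with the replicate block. It was also lost without control replicate 1 or 3 or any 1 of the clofibrate arrays. Ppard, the PPAR delta gene, fell by 1.37 on the log2 scale with clofibrate. That call was lost under both of those scalings, with no filter and with no intensity trend. It was also lost without any 1 of the controls or without clofibrate replicate 1 or 2. Ppara itself had log2 differences of 0.00 with permethrin (limma adjusted p = 0.996) and 0.44 with clofibrate (limma adjusted p = 0.0888). In the leukotriene pathway limma called 0 of 5 tested genes with either diet, and 0 and 1 had an unadjusted p under 0.05. Of all 24546 probe sets tested, 3355 with permethrin and 4661 with clofibrate had such a p.

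The genes most like each member were found by the root mean square difference of log2 signals over the 9 arrays, each centred on its own mean. For Cyp4a12a they were Clstn3, Acot1 and Cd36, at 0.78, 0.81 and 0.85. For Cyp4a14 they were Aknaos, Chrna2 and Acyp2, at 0.68, 0.70 and 0.70, and Aknaos had mean signals of 4.67 in controls and 17.4 and 13.2 on the diets, around the filter value. These distances, out of 12465 other genes, were the widest of the 8 members. For Cyp4f14 the nearest were Ppp1r1b, Lifr, the leukemia inhibitory factor receptor, and the organic anion transporter Slc22a26, at 0.25, 0.35 and 0.40. Lifr had a mean control signal of 1809, against 813 under permethrin and 534 under clofibrate. For Cyp4v3 they were Gpc4, a glypican, the taurine and GABA transporter Slc6a13 and Hsd11b1, which reactivates glucocorticoids, at 0.09, 0.09 and 0.10. Hsd11b1 had mean signals of 7021, 5105 and 3547 in the same order. The steadier members had matches at 0.07 to 0.15, which were a (nonagouti), Ankrd28 and Cep170b for Cyp4b1, Mcu, Dtl and Enpp3 for Cyp4f13, Rap1gds1, Pld3 and Coasy for Cyp4f15, and Kbtbd2, Igfbp7 and Ppp1r7 for Cyp4f16.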

How the data were processed

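The authors deposited linear signals in intensity units, 1 value for each probe set on each array. The submitters' processing notes name MAS5, with no version given in the sources used here. Every array had a mean of 100.001 without its lowest and highest 2% of values, so arrays had been scaled to it. The description of treated samples names rats, while organism, source and strain give mouse; all were taken as mouse. Of 45037 probe sets without the 64 array controls, 34945 carried 1 gene symbol, 932 several and 9160 none; symbols were updated through Entrez identifiers. The list genes were read, like the members, from the probe set of highest mean signal.

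Signals were taken to log2 after adding 3.35, their 20th percentile. The 24546 probe sets that exceeded 15.6, the overall median, on 3 or more arrays were tested with limma 3.58.1 in R 4.3.3: 1 model over 9 arrays, a mean per diet, an intensity trend, two-sided tests and Benjamini-Hochberg adjustment per comparison. The steps were tested on simulated data. Alternatives changed the offset, normalization, filter, variance model, arrays fitted, probe set or replicate block, or left out 1 array. The number of arrays limits the precision, and nothing says whether extraction or scanning was batched. The members were chosen by name, and both members and lists at a time when earlier results of these data were known. The text names all 8 members, up to 4 called genes per list and comparison with the largest differences, other Cyp4 genes, and the 3 genes most like each member; values of list genes outside that were chosen after they were seen. Probe sets annotated to several genes, among them 1 for Cyp4a10 with Cyp4a31, were not used here.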

Additional observations from a re-analysis of the deposited data

How the results depend on the processing

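Of 480 alternative values of single members, 423 kept their direction and their side of the threshold, 25 lost the call, 9 gained it and 23 changed sign, none of these called. The Cyp4a12a rises with either diet and the Cyp4f14 fall with clofibrate were called in all 20 alternatives each. Cyp4a14 with clofibrate was lost in 10 of 20 (adjusted p 0.00381 to 0.179) and Cyp4v3 with permethrin in 14 of 21. Members called with permethrin went from 2 to 1 with quantile, median and cyclic loess normalization, with no filter, with no intensity trend and with the replicate block, and were 1 to 2 with 1 array left out. Fitting control and permethrin arrays alone gave 3, with Cyp4f14. With clofibrate 4 were called. The count was 3 with an offset of 1, no filter, no trend, robust moderation, the arrays compared alone or the replicate block, 5 with cyclic loess, a filter at 50 or array weights, and 3 to 4 with 1 array left out. Scaling to the hybridization controls gave 4, with Cyp4f15 in place of Cyp4v3. Between the diets 0 were called under every alternative. Nothing in the labels pairs samples by number, and deviations of same-numbered arrays correlated between -0.109 and 0.113. The replicate block changed no other member's call than Cyp4a14 with clofibrate and Cyp4v3 with permethrin.

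All probe sets called with permethrin numbered 395 (248 higher, 147 lower), 227 (191, 36) with each array centred on its median, 257 (228, 29) under the hybridization controls and 122 (95, 27) with no trend, or 162 to 282 with 1 array left out. With clofibrate they were 1384 (696, 688), 806 (539, 267) when centred, 657 (384, 273) with no trend and 2511 with array weights, or 664 to 1340.0 with 1 array left out. Between the diets they were 136 (81, 55), 54 (39, 15) when centred, 80.0 (16, 64) under the hybridization controls, 210.0 above a signal of 50, 24 with no trend, 75 with the arrays compared alone and 374 with array weights, or 28 to 177 with 1 array left out. The hybridization controls moved the median of all probe sets from -0.05 to 0.09 with permethrin, from -0.04 to 0.30 with clofibrate and from -0.02 to -0.20 between the diets, and gave 1921 clofibrate calls, 93.5% of them higher.

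Sign changes were small. For Cyp4f16, permethrin against control was 0.014 (quantile), 0.048 (median), 0.023 (loess) and 0.089 (hybridization controls), and clofibrate against control 0.073 (median), 0.025 (loess) and 0.32 (hybridization controls), or -0.18 to 0.13 with 1 array left out. Permethrin against clofibrate was 0.018 for Cyp4f16 (quantile), or -0.19 to 0.12 with 1 array left out. For Cyp4a14 it was -0.12 (quantile), -0.034 (loess) and -0.12 (hybridization controls), and for Cyp4v3 -0.049 on the second probe set. For Cyp4b1 it was -0.16 (hybridization controls) and -0.044 (array weights), or -0.0063 to 0.095 with 1 array left out. Clofibrate against control was 0.054 for Cyp4b1 and 0.14 for Cyp4f13 under the hybridization controls. The causes were not tested. Cyp4f16, at 33.1 to 52.5, lies nearest to the filter.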
